A study of Rattus norvegicus with 12 samples.

Results

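Of 12 rat prefrontal cortex RNA libraries, 4 were chosen by their level of 3 genes that mark the output neurons of the olfactory bulb, and their expression across all genes was described against that of the other 8. The choice was made on measured values. For each library, log2(FPKM + 0.5) was averaged over Eomes, Tbx21 and Cdhr1, and the 4 libraries with the highest mean were taken, where FPKM is a fragment count corrected for the length of the gene and the size of the library. They were PNO 1, PNO 3, PNO 4 and IUO 3. All animals carried the wild-type genotype and the labelled tissue was prefrontal cortex for every library. Controls received saline, the PNO group had postnatal oxycodone and the IUO group had in utero oxycodone, given by oral gavage at 15 mg/kg, and postnatal day 21 is the latest time the labels name. Each group held 4 animals in early adolescence. They came from 2 dams per group and 2 animals per dam, and the labels tie no animal to its dam, so a p-value over animals can come out smaller than it should. Strain, exact age and sex are not in the labels used here. Total counts ran from 49227533 to 60672246 per library. Counts from mitochondrial genes made up 15.5%, 16.9%, 15.5% and 17.1% of the total in PNO 1, PNO 4, PNO 3 and IUO 3, within the 15.1% to 18.9% of the other 8.

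The olfactory bulb lies at the front of the rodent brain, below and ahead of the frontal cortex. Axons of olfactory sensory neurons end there on mitral and tufted cells, the glutamatergic output neurons, whose activity is shaped by inhibitory periglomerular and granule cells. Both kinds of inhibitory neuron are renewed through life by neuroblasts that migrate from the lateral ventricle along the rostral migratory stream. Transcription factors of the Dlx, Meis, Pbx, Sp and Tshz families take part in the formation of these interneurons.

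IUO 3 had the highest marker mean, 3.12, followed by PNO 4 at 2.84, PNO 1 at 2.66 and PNO 3 at 2.51. In the other 8 libraries the lowest marker mean was 0.0749, in IUO 4, and the highest was 0.756, in IUO 1. The last library inside the limit was therefore PNO 3 and the first outside was IUO 1, with a wide gap between them. Eomes, a T-box transcription factor, stood at 6.69, 5.86, 7.78 and 11.3 CPM (counts scaled to the library total) in PNO 1, PNO 3, PNO 4 and IUO 3, in that order, and at 0.152 to 0.763 CPM elsewhere. Tbx21, another T-box factor, stood at 8.49, 6.95, 8.31 and 10.2 CPM in the same order and at 0.406 to 1.52 CPM elsewhere. Cdhr1, a cadherin-related membrane protein, stood at 100, 99.6, 131 and 144 CPM against 8.12 to 25.1 CPM. These genes selected the libraries, so their levels support nothing and they were left out of every count that follows. None of the 4 controls was among the 4 libraries, while 3 PNO libraries and 1 IUO library were.

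**Figure D1:**
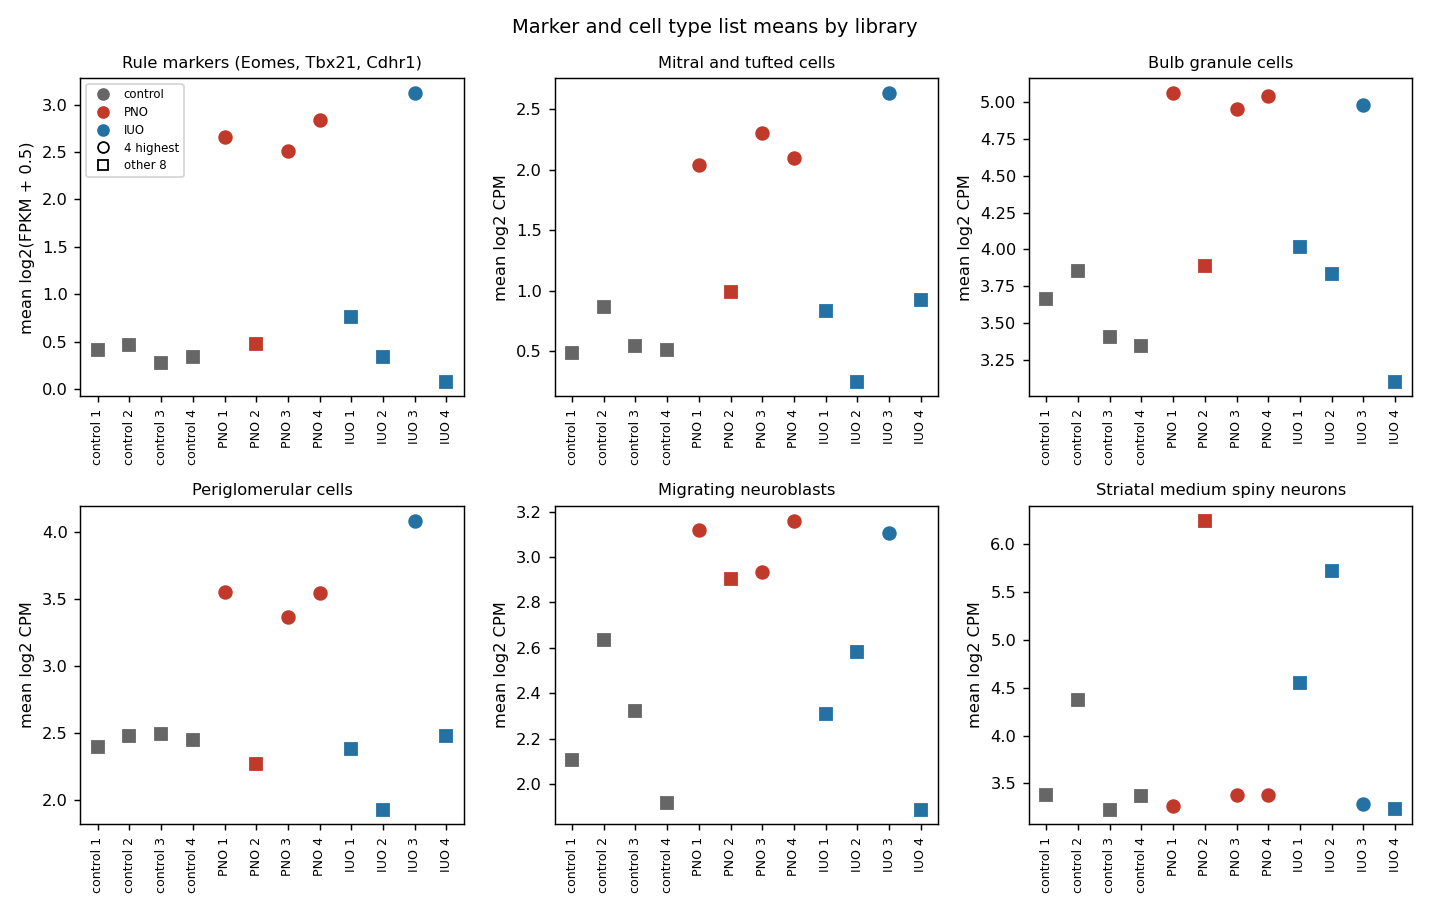
Mean of the 3 rule markers, as log2(FPKM + 0.5), and mean log2 CPM of 5 cell type lists in each of the 12 libraries. Colour gives the exposure group, circles the 4 libraries with the highest marker mean and squares the other 8. The circles sit above every square for the mitral and tufted, granule, periglomerular and neuroblast lists, and the 4 libraries with raised striatal markers (control 2, PNO 2, IUO 1 and IUO 2) are all squares.

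The marker mean was also compared between the exposure groups over animals. It is the measure that chose the libraries. The rule did not use the exposure labels. Members and gene lists were chosen with earlier results of these data known, so the comparison is not independent of those results. It was 2.12 ± 1.11 in PNO (SD, n = 4), 1.07 ± 1.40 in IUO (SD, n = 4) and 0.370 ± 0.0848 in controls (SD, n = 4). PNO exceeded controls by 1.75 on this log2 scale, with p = 0.0286 in a two-sided exact permutation test and 0.0857 after Benjamini-Hochberg adjustment over the 3 pairs of groups. That p is the smallest that 4 animals against 4 allow, and every PNO library was above every control, PNO 2 only narrowly. PNO 2 was at 0.470 and control 2 at 0.463. With log2(FPKM + 1) as the scale, the exact permutation p was 0.0571 (adjusted 0.171). The IUO mean exceeded the control mean by 0.704 (exact permutation p = 0.429, adjusted 0.429), and PNO exceeded IUO by 1.05 (exact permutation p = 0.4, adjusted 0.429). No pair passed the threshold of 0.05 after adjustment, which a single pair cannot do with groups of this size. The IUO difference rested on IUO 3: without that library it was 0.0207.

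Across 14167 genes whose FPKM averaged 0.5 or more, 79 were called higher in the 4 libraries and 1 was called lower, by edgeR's quasi-likelihood test with a Benjamini-Hochberg adjusted p under 0.05. These calls are 0.558% and 0.00706% of the genes tested. At an unadjusted p under 0.05 there were 567 genes higher and 422 lower. Because the libraries were divided by values measured in them, the fit sets the size of each difference beside the spread within the sets and does not test whether the libraries differ. In all 79 genes each of the 4 libraries was above each of the other 8. Such separation was seen in 206 genes overall (1.45%), and the reverse, all 4 below all 8, in 20 genes (0.141%). The log2 fold changes of the 79 genes ran from 0.38 to 5.20 with a median of 1.09, while the median over all tested genes was -0.01. Leaving out IUO 3 left 52 genes called higher, of which 51 were among the 79. With exposure group as a term, 35 were called higher, 33 of them among the 79, and marker level and exposure cannot be fully told apart with no control among the 4.

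**Figure D2:**
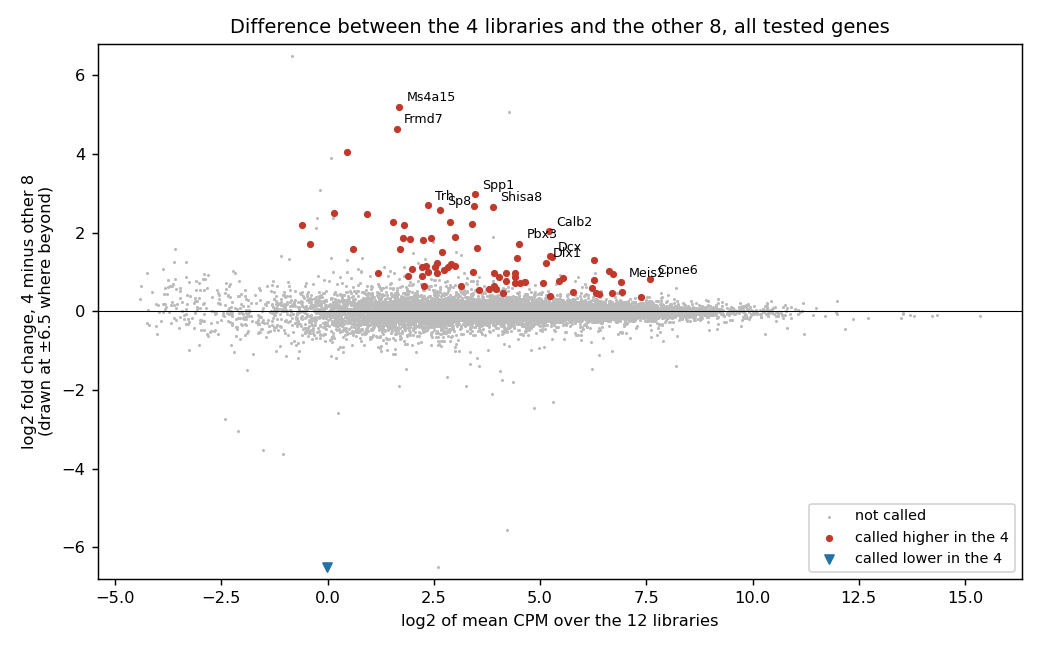
Log2 fold change of the 4 libraries over the other 8 (vertical axis) against the log2 of the mean CPM over the 12 libraries (horizontal axis) for all tested genes. Red points are the 79 genes called higher and the blue triangle is the 1 gene called lower, and the called genes lie almost entirely above the line at 0.

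Beyond the rule genes, part of the mitral and tufted cell list was called higher in the 4 libraries. Of 15 listed genes, 10 passed the filter on low values, and 5 of these were called higher and none lower, with a median log2 fold change of 1.28. Over all genes tested, 0.558% were called higher and 0.00706% lower. Filtering on the mean over all libraries favours genes that are high in some of them, so the members that passed are not all members of the list. Of the 79 genes called higher, 9 averaged under 0.5 FPKM in the other 8 libraries and passed only through the 4. Doc2g, a C2-domain protein, was at 18.0, 20.0, 27.2 and 34.3 CPM in PNO 1, PNO 3, PNO 4 and IUO 3, against a lowest, median and highest value of 2.33, 3.46 and 5.49 CPM in the other 8. Its log2 fold change was 2.67 ± 0.23 (SE). Spp1, which encodes the secreted phosphoprotein osteopontin, was at 17.8, 25.5, 23.3 and 39.8 CPM against 1.65, 3.33 and 4.85 CPM, a log2 fold change of 2.98 ± 0.23 (SE). IUO 3 was the highest library for both genes, and neither gene's sets overlapped. Shisa3, a regulator of Wnt and FGF receptor maturation, was at 14.0, 12.9, 20.7 and 15.3 CPM against 2.80, 4.35 and 4.94 CPM, with PNO 4 highest. Ms4a15, a four-span membrane protein, had the largest log2 fold change of the 79 genes, 5.20 ± 0.62 (SE). It was at 8.18, 7.09, 10.95 and 10.4 CPM in the 4 libraries, and at 0 to 0.814 CPM in the others, with no read in control 1 or IUO 2. Ms4a15 passed the filter only through the 4 libraries, so it had to differ, and its fold rests on very few reads in the other 8. The fifth called gene was Nmb, the precursor of the peptide neuromedin B, at 4.83 to 10.7 CPM against 0.813 to 2.94 CPM.

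The members that were not called included genes shared with cortical neurons. Reln, a secreted glycoprotein of several neuron types, was at 49.8 to 64.3 CPM in the 4 libraries and 17.7 to 47.3 CPM in the other 8. Its sets did not overlap, as for 1.45% of all genes tested, but its adjusted p was 0.283 in edgeR's quasi-likelihood test. Ntng1, a netrin-family adhesion protein, was likewise separated, at 20.0 to 23.1 CPM against 9.06 to 18.5 CPM (adjusted p = 0.195, edgeR). Slc17a6, the vesicular glutamate transporter of subcortical and mitral neurons, was at 10.5 to 13.6 CPM against 6.39 to 13.1 CPM, and the sets overlapped. Cck and Nts, both neuropeptide precursors, overlapped as well, with log2 fold changes of -0.21 and -0.52. Of the 5 members under the filter, Barhl2, a homeodomain factor, was at 0.407 to 0.861 CPM in the 4 libraries and at most 0.363 CPM elsewhere. Lhx5, Lhx1, Uncx and Ebf3, also transcription factors, had overlapping sets at or under 1.15 CPM.

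Among 9 genes of bulb granule cells, all of which passed the filter, 5 were called higher (0.558% over all genes tested), and the median log2 fold change was 0.84. Frmd7, a FERM-domain protein linked to the cytoskeleton, was at 7.62, 7.70, 8.99 and 10.05 CPM in PNO 1, PNO 3, PNO 4 and IUO 3, and its lowest, median and highest values in the other 8 were 0.0674, 0.265 and 0.790 CPM. Its log2 fold change of 4.65 ± 0.42 (SE) was the second largest of the 79, but Frmd7 also passed the filter only through the 4 libraries. Cpne4, a calcium-dependent membrane-binding copine, was at 72.0, 67.1, 65.7 and 59.6 CPM against 23.5, 37.7 and 42.8 CPM. For Cpne4 it was PNO 1, and not IUO 3, that stood highest.

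The remaining 3 called granule genes encode transcription factors that striatal neurons also express. Pbx3, a TALE homeodomain factor, was at 38.0, 39.4, 47.1 and 46.5 CPM in the 4 libraries. In the other 8 it reached 25.1 CPM in PNO 2, 15.8 CPM in IUO 1 and 16.3 CPM in IUO 2, and was lowest in control 4 at 7.23 CPM. PNO 2, IUO 1 and IUO 2 were also the libraries with the highest striatal marker means, described below. Meis2, a TALE homeodomain factor, was at 164 to 169 CPM against 78.6 to 129 CPM, again with PNO 2 highest of the 8. Tshz1, a zinc finger factor, was at 32.9 to 42.8 CPM against 8.91 to 21.8 CPM. All 3 sets were separate even so, as for 1.45% of all genes tested. With exposure group as a term, Frmd7 and Meis2 were called and Pbx3, Tshz1 and Cpne4 were not, and with the controls left out as well, Frmd7 alone of the list was called. Synpr, a synaptic vesicle protein, was separated without being called, at 84.1 to 102 CPM against 33.3 to 74.3 CPM (adjusted p = 0.228, edgeR). Gng4, a G protein gamma subunit, was at 13.1 to 16.8 CPM against 1.30 to 8.15 CPM (adjusted p = 0.0808, edgeR). Tpbg and Thsd7b overlapped, with log2 fold changes of 0.16 and -0.02.

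Of 10 periglomerular genes, 9 passed the filter and 5 were called higher (0.558% over all genes tested), with a median log2 fold change of 1.16. Calb2, the calcium-binding protein calretinin, was at 73.1, 73.7, 61.4 and 92.3 CPM in PNO 1, PNO 3, PNO 4 and IUO 3, and at 10.035, 18.6 and 20.96 CPM (lowest, median, highest) in the other 8. Its log2 fold change was 2.04 ± 0.16 (SE). Sp8, a zinc finger factor of calretinin-positive interneurons, was at 14.1, 9.92, 15.1 and 17.6 CPM against 1.46, 2.11 and 4.00 CPM, a log2 fold change of 2.57 ± 0.23 (SE), and it too passed the filter only through the 4. The sets were separate for both genes, by more than the whole spread of the 8 libraries. Th, tyrosine hydroxylase, the rate-limiting enzyme of dopamine synthesis, was at 8.17, 6.599, 7.53 and 20.0 CPM against 1.85, 2.96 and 3.86 CPM. Trh, the precursor of thyrotropin-releasing hormone, was at 8.59, 7.17, 6.88 and 24.5 CPM against 1.09, 1.76 and 2.51 CPM. IUO 3 stood well above the 3 PNO libraries for Th and Trh. Sall3, a zinc finger factor, was at 6.80 to 9.80 CPM against 2.56 to 4.35 CPM.

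The other genes of the dopamine pathway on this list were not called. Ddc, which makes dopamine from L-DOPA, was at 3.04, 2.46, 3.66 and 6.48 CPM in the 4 libraries and at 3.97 to 6.16 CPM in the other 8, so that 3 of the 4 lay below the whole range of the others and IUO 3 above it. Slc18a2, the vesicular monoamine transporter, was at 10.6 to 13.2 CPM against 10.8 to 14.3 CPM. Pax6 and Etv1, transcription factors of dopaminergic periglomerular cells, overlapped, with log2 fold changes of 0.79 ± 0.23 and 0.31 ± 0.09 (SE). Trdn, which fell under the filter, was at 3.48 to 5.73 CPM against 0.488 to 2.15 CPM.

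Of 16 genes of migrating neuroblasts, 12 passed the filter and 5 were called higher (0.558% over all genes tested), with a median log2 fold change of 0.84. Dcx, a microtubule-associated protein of migrating neurons, was at 65.9, 55.1, 63.8 and 75.4 CPM in PNO 1, PNO 3, PNO 4 and IUO 3, and at 20.7, 24.5 and 27.5 CPM (lowest, median, highest) in the other 8, a log2 fold change of 1.40 ± 0.09 (SE). The homeodomain factors Dlx1 and Dlx2, which specify forebrain GABA neurons, were both called. Dlx1 was at 51.8, 53.7, 54.4 and 69.8 CPM against 18.5, 23.99 and 27.6 CPM, and Dlx2 at 17.9 to 22.9 CPM against 3.44 to 10.04 CPM. Igfbpl1 was at 4.71 to 7.06 CPM against 0.915 to 3.26 CPM. Dlx5, Dlx6 and Sp9, of the same factor families, overlapped with the other 8 and were not called. With exposure group as a term, Dcx, Dlx1 and Dlx2 were called on this list, and with the controls left out as well, Dcx and Dlx1.

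Genes of dividing cells did not share this pattern. The proliferation genes Mki67 and Top2a were under the filter, at 1.08 to 2.37 CPM and 0.878 to 2.20 CPM in the 4 libraries against 0.811 to 3.92 CPM and 0.900 to 3.96 CPM in the other 8. Sox11 and Sox4, factors of immature neurons, had log2 fold changes of 0.21 and 0.12, and Robo2 and Cd24, surface proteins of neuroblasts, of 0.17 and -0.06. None of these was called.

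**Figure D3:**
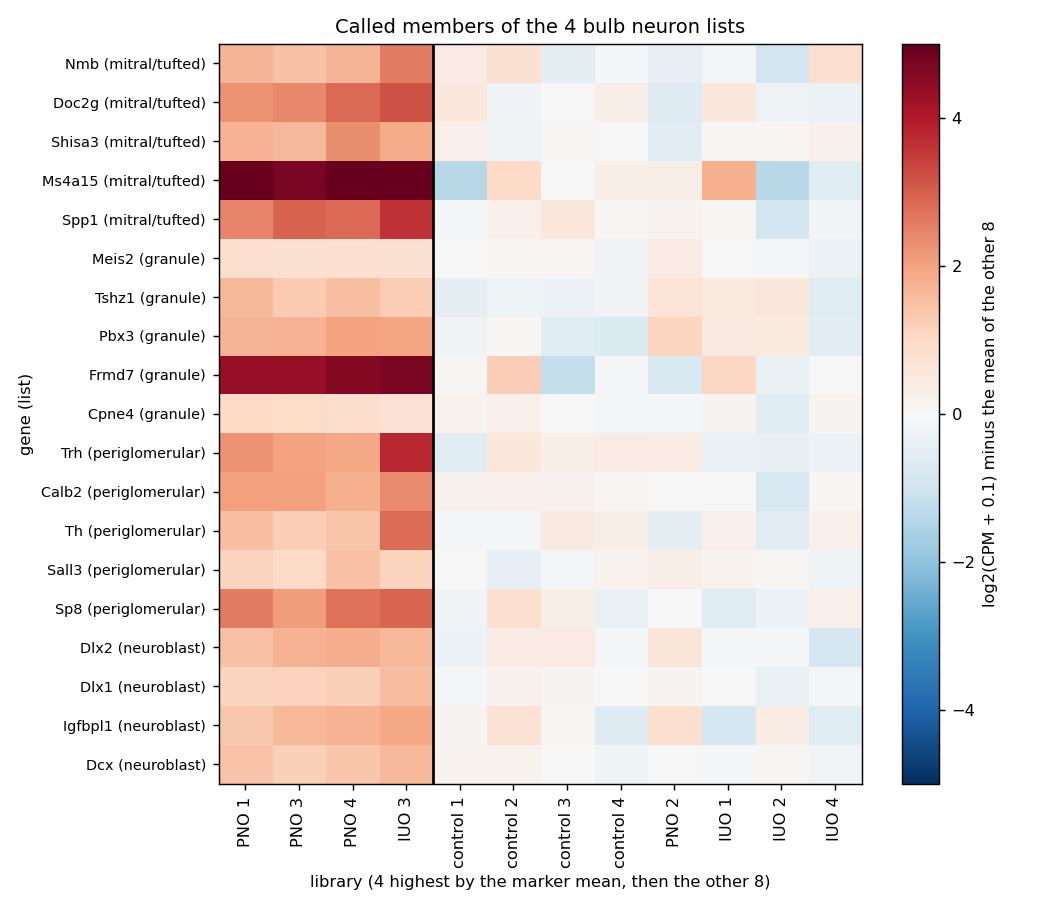
Log2(CPM + 0.1) minus the mean of the other 8 libraries for 19 of the 20 called genes of the 4 bulb neuron lists. Columns are the 12 libraries, with the 4 highest by the marker mean left of the black line. Every gene drawn is red in all 4, with Ms4a15 and Frmd7 darkest, and PNO 2, IUO 1 and IUO 2 show pale red for Pbx3 and Tshz1.

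The promoter windows of these genes were searched for binding cores of homeodomain and T-box factors, to which several of the markers belong. The windows are RefSeq's, on the GRCr8 assembly, from 250 bases before to 50 after each gene's start, and 52 of the 79 genes matched one by symbol. TAATTA, a core that many homeodomain factors bind and which reads the same on both strands, occurred in 4 of the 52 genes' windows (7.69%), those of Dcx, Frmd7, Lrrc23 and Wnt5a. It occurred in 225 of 9908 tested genes that matched (2.27%) and in 5.36% of all 33469 windows. AGGTGTGA, a T-box core searched on both strands, occurred in none of the 52, in 83 of the 9908 (0.838%) and in 1.10% of all windows. A match is a description of the letters and not evidence of a bound site. The windows of the neuroblast gene Dcx, chrX:112304112-112304411, and of the granule gene Frmd7, chrX:135308129-135308428, both on the minus strand, are shown 5′ to 3′ because these genes combine a large difference with the homeodomain core, which is in capitals.
Dcx: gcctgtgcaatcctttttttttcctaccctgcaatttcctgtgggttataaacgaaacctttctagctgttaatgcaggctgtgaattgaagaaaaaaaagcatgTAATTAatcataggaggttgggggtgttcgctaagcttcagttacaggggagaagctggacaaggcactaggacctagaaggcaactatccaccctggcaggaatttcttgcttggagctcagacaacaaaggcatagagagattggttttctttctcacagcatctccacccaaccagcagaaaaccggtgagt
Frmd7: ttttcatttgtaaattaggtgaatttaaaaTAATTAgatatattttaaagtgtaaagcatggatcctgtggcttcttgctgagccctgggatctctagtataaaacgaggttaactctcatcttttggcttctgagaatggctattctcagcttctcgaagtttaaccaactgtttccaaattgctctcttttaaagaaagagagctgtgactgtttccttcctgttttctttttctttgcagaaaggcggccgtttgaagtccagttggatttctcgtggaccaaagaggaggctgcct
The core starts at base 106 of the Dcx window and at base 31 of the Frmd7 window. In the deposited table, whose build is not named, Dcx spans bases 107430767 to 107507476 and Frmd7 bases 130377227 to 130423771 of chromosome X, both on the minus strand.

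Genes of olfactory sensory neurons and of olfactory ensheathing cells differed less evenly between the sets. Of 10 sensory neuron genes listed, 8 were matched and 3 were tested. The fit of 4 against 8 called none, with 1 above 0 and 2 below and a median log2 fold change of -0.10. The 5 others, Omp, Stoml3, Cnga2, Cnga4 and Ano2, were under the filter and not tested. Omp, the olfactory marker protein of mature sensory neurons, was at 17.3 CPM in IUO 3, 1.93 in PNO 1, 0.608 in PNO 3 and 0.407 in PNO 4, and at most 0.312 CPM in the other 8. S100a5, a calcium-binding protein of the same neurons, was at 5.69 CPM in IUO 3, 0.499 in PNO 1, 0.422 in PNO 3 and 0.102 in PNO 4, with no read in any of the other 8. Of the 397 S100a5 reads in the 4 libraries, 337 were from IUO 3. Against a floor of 3 counts over the other 8 libraries, S100a5 was at least 257-fold higher in the 4, but it passed the filter through 1 library and was not called by edgeR (adjusted p = 0.0917). DESeq2, and edgeR with exposure group as a term, did call it. Stoml3 was at 3.33 CPM in IUO 3 and 0.464 in PNO 1, and was not detected in PNO 3 or PNO 4. In the other 8 it was at 0 to 0.527 CPM. Cnga2, a subunit of the olfactory transduction channel, was at 0.135 CPM in IUO 3 and 0 in the 11 others. Adcy3 and Gng8, which the cortex also expresses, did not separate, with log2 fold changes of -0.10 and -0.42. Cnga4, at 0.203 to 0.481 CPM against 0 to 0.610 CPM, overlapped too. So did Ano2, at 1.15 to 1.64 CPM against 0.186 to 1.54 CPM. Of the 7 genes of olfactory ensheathing cells, the glia that wrap the axons of sensory neurons, 6 were tested and edgeR called none. Of these, 2 were above 0 and 4 below (median log2 fold change -0.10). Among these, Frzb, a secreted Wnt antagonist, was at 19.2 to 30.9 CPM against 10.7 to 21.5 CPM, and was called higher by DESeq2 (adjusted p = 0.0320) and by edgeR with exposure group as a term (adjusted p = 0.0306).

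The 4 libraries carried the bulb genes in different proportions. For each called gene, a library's CPM above the mean of the other 8 was divided by the average of that excess over the 4, so that 1 is the average of the 4. Over the 79 genes the median of this excess ratio was 1.14 in IUO 3, 1.04 in PNO 4, 0.967 in PNO 3 and 0.840 in PNO 1, and the highest library was IUO 3 for 35 genes and PNO 1 for 7. For the 5 called mitral and tufted genes the medians for PNO 1, PNO 3, PNO 4 and IUO 3 were 0.786, 0.767, 1.11 and 1.45. In the same order, for the 5 granule genes they were 1.02, 0.892, 1.05 and 0.975, close to equal. For the 5 periglomerular genes they were 0.918, 0.639, 0.760 and 1.30, and for the 5 neuroblast genes 0.786, 0.958, 1.02 and 1.30. IUO 3 was thus highest for output, periglomerular and neuroblast genes and did not stand out for granule genes. These ratios were not tested, since each library is a single animal.

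Of the 79 called genes, 20 were on a bulb list and 2 had no symbol. Most of the rest were on no list. Shisa8, an auxiliary subunit of AMPA-type glutamate receptors, had the smallest p of all. It was at 30.4, 32.05, 34.4 and 38.9 CPM in PNO 1, PNO 3, PNO 4 and IUO 3, against 3.87 to 7.69 CPM in the other 8, a log2 fold change of 2.66 ± 0.16 (SE). Scgn, the calcium sensor secretagogin known from bulb interneurons, was at 15.1, 16.1, 13.0 and 19.1 CPM against 2.19 to 3.82 CPM. For both genes the lowest of the 4 was well above the highest of the 8. Pcbp3, a poly(C)-binding RNA regulator, was at 115, 134, 131 and 137 CPM against 44.6 to 57.4 CPM. Csdc2, a cold-shock-domain RNA-binding protein, was at 129, 151, 156 and 168 CPM against 69.0 to 77.4 CPM. For the highly expressed Pcbp3 and Csdc2 the difference was 1.31 ± 0.08 and 1.04 ± 0.07 (SE) on the log2 scale. Myo16, an unconventional myosin of neurons, was at 62.2, 71.2, 70.9 and 60.1 CPM against 18.2 to 32.1 CPM. Itga10, a collagen-binding integrin subunit, was at 5.33 to 6.83 CPM against 0.727 to 1.80 CPM. Mcub, a subunit that dampens the mitochondrial calcium uniporter, was at 1.43 to 3.16 CPM against 0.276 to 0.544 CPM. Itga10 and Mcub passed the filter only through the 4 libraries, with at most 0.322 and 0.430 FPKM in the other 8, so they had to differ.

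Some further called genes are named here after their values were seen. The transcription factor genes Meis1 and Sall1, relatives of the listed Meis2 and Sall3, had log2 fold changes of 1.15 ± 0.20 and 0.75 ± 0.09 (SE). Eya2, a transcriptional coactivator and phosphatase, was at 22.4 CPM on average in the 4 and 4.71 in the other 8. Cpne6, a second copine, was at 271 against 151 CPM on average. Tnc, the matrix protein tenascin C found along the migratory stream, and Wnt5a, a secreted Wnt ligand, had log2 fold changes of 0.99 ± 0.15 and 0.98 ± 0.15 (SE). Vipr2, a receptor for vasoactive intestinal peptide, had one of 1.00 ± 0.13 (SE).

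Cortical genes were at similar levels in both sets. Of 25 genes of cortical projection neurons, 23 were tested and none was called, with 7 above 0 and 16 below and a median log2 fold change of -0.05. Slc17a7, the main vesicular glutamate transporter of the cortex, was at 1953, 2157, 2103 and 2023 CPM in PNO 1, PNO 3, PNO 4 and IUO 3, inside the 1337 to 2363 CPM of the other 8. Camk2a, a kinase of excitatory synapses, was at 859 to 1154 CPM against 427 to 1259 CPM. Both genes were therefore present in all 12 libraries, which does not show that a library held the labelled tissue alone. Tbr1, a T-box factor of deep-layer cortical neurons related to the rule gene Eomes, was at 108 to 125 CPM against 111 to 153 CPM. In bulk tissue, fewer cells of a type and less RNA per cell cannot be told apart, here and for every list.

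Of 9 tested genes of cortical interneurons 1 was called higher (0.558% over all genes tested). Ndnf, a secreted protein of layer 1 interneurons, was at 7.80 to 10.2 CPM against 3.26 to 5.54 CPM. Sst, Npy and Vip, the peptides of the main interneuron classes, overlapped, with log2 fold changes of -0.20, -0.09 and -0.12. The GABA-synthesis enzyme Gad1 was at 279, 261, 307 and 297 CPM in PNO 1, PNO 3, PNO 4 and IUO 3 and at 165 to 258 CPM in the other 8. Its sets did not overlap, as for 1.45% of all genes tested. Its log2 fold change of 0.47 ± 0.11 (SE) had an adjusted p of 0.0773 in edgeR. DESeq2 called Gad1 higher (adjusted p = 0.0051786), and edgeR called none of the 5 genes of GABA synthesis, transport and breakdown. Gad2, the second synthesis enzyme, was at 8.67 to 16.04 CPM against 5.31 to 28.3 CPM, and Slc32a1, the vesicular GABA transporter, at 95.4 to 116 CPM against 49.96 to 141 CPM. PNO 2 was the highest library for Gad2 and Slc32a1. Abat, which degrades GABA, had a log2 fold change of 0.08.

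The other 8 libraries were not uniform, and genes of striatal medium spiny neurons varied among them. All 14 tested striatal genes had a negative log2 fold change, with a median of -1.28, and none was called. Ppp1r1b, the dopamine-signalling phosphatase inhibitor DARPP-32, was at 131 to 147 CPM in the 4 libraries, and at 150.4 to 876 CPM in the other 8. Its sets did not overlap, as for 0.141% of all genes tested in that direction. PNO 2, at 876 CPM, and IUO 2, at 704 CPM, were highest, followed by control 2 at 336 and IUO 1 at 330 CPM. Penk, the enkephalin precursor, was at 95.1 to 114 CPM in the 4 and reached 380 CPM in PNO 2. Without control 2, PNO 2, IUO 1 and IUO 2, the median log2 fold change of the striatal list was -0.04, with 6 genes above 0 and 8 below. That fit set 4 libraries against 4. Those left on the other side were all controls except IUO 4, while the 4 bulb-marker libraries were all from oxycodone groups. Marker level and exposure were thus nearly the same division, here and wherever these striatal-marked libraries are left out below. A change in that fit therefore cannot be ascribed to the striatal markers alone. In it, 82 genes were called higher, 55 of them among the 79. Gad1 was called as well, with a log2 fold change of 0.59 and an adjusted p of 0.0238 (edgeR). The GABA list's median moved from 0.13 to 0.57 in the same fit. That median was instead -0.05 with exposure group as a term, with 1 gene above 0 and 4 below. Gad1 then had a log2 fold change of 0.33 and an adjusted p of 0.400 (edgeR). With exposure group as a term, 7 genes were called lower, among them the striatal gene Pde10a.

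No opioid gene was called, and the peptide precursor genes Penk, Pdyn and Pomc were highest in PNO 2. Of 8 listed receptors and peptides 6 were tested (median log2 fold change -0.18, and -0.05 when the 4 striatal-marked libraries were left out). Pdyn, the dynorphin precursor, was at 20.1, 21.1, 21.6 and 16.3 CPM in PNO 1, PNO 3, PNO 4 and IUO 3 and at 18.0 to 78.9 CPM in the other 8, highest in PNO 2. The nociceptin receptor gene Oprl1 and its peptide precursor Pnoc had log2 fold changes of -0.18 ± 0.09 and -0.17 ± 0.17 (SE), and the delta receptor gene Oprd1 one of -0.04 ± 0.33 (SE). Pomc was at 7.12 CPM in PNO 3 and 1.17 to 1.95 CPM in the rest of the 4. The mu receptor gene Oprm1 and the kappa receptor gene Oprk1 were under the filter, at no more than 0.155 and 1.62 CPM in the 4.

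All 11 tested genes of myelin and mature oligodendrocytes had a negative log2 fold change, with a median of -0.58, and none was called by edgeR. Mbp, myelin basic protein, was at 3988, 3847, 3828 and 3440 CPM in PNO 1, PNO 3, PNO 4 and IUO 3 and at 3381 to 7838 CPM in the other 8, highest in IUO 2. The sets overlapped. Leaving out the 4 striatal-marked libraries gave a median of -0.14, with 10 of 11 genes below 0. DESeq2 called 28 genes lower (0.198% of those tested) where edgeR called 1, and 3 of these, Mog, Mag and Mal, are on the myelin list.

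Glial, vascular, meningeal, blood and immediate early gene lists held no gene called by edgeR with all 12 libraries. DESeq2 called Bcas1, a gene of the oligodendrocyte lineage on the precursor list, lower (log2 fold change -0.53, adjusted p = 0.0051786). Median log2 fold changes were -0.12 for oligodendrocyte precursors, -0.11 for astrocytes, -0.10 for microglia and -0.08 for endothelium and pericytes. The meningeal list had a median of 0.21, and its collagen gene Col1a1 was at 73.2, 114, 211 and 70.6 CPM in PNO 1, PNO 3, PNO 4 and IUO 3 against 42.1 to 92.8 CPM. PNO 4 held the highest Col1a1 level of all 12. Blood genes had a median of 0.15. Immediate early genes, which report recent neuronal activity, had a median of 0.22 over 16 tested, and -0.10 when the 4 striatal-marked libraries were left out, where edgeR called Bdnf, a neurotrophin gene, lower (log2 fold change -0.64). Arc, one of them, was at 178 to 330 CPM in the 4 and at 39.7 to 375 CPM in the others, lowest in IUO 2 and IUO 1. Only 2 of the 6 choroid plexus and ependyma genes were tested, and Ttr was at 198 CPM in IUO 2 and at most 1.10 CPM in the 4.

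**Figure D4:**
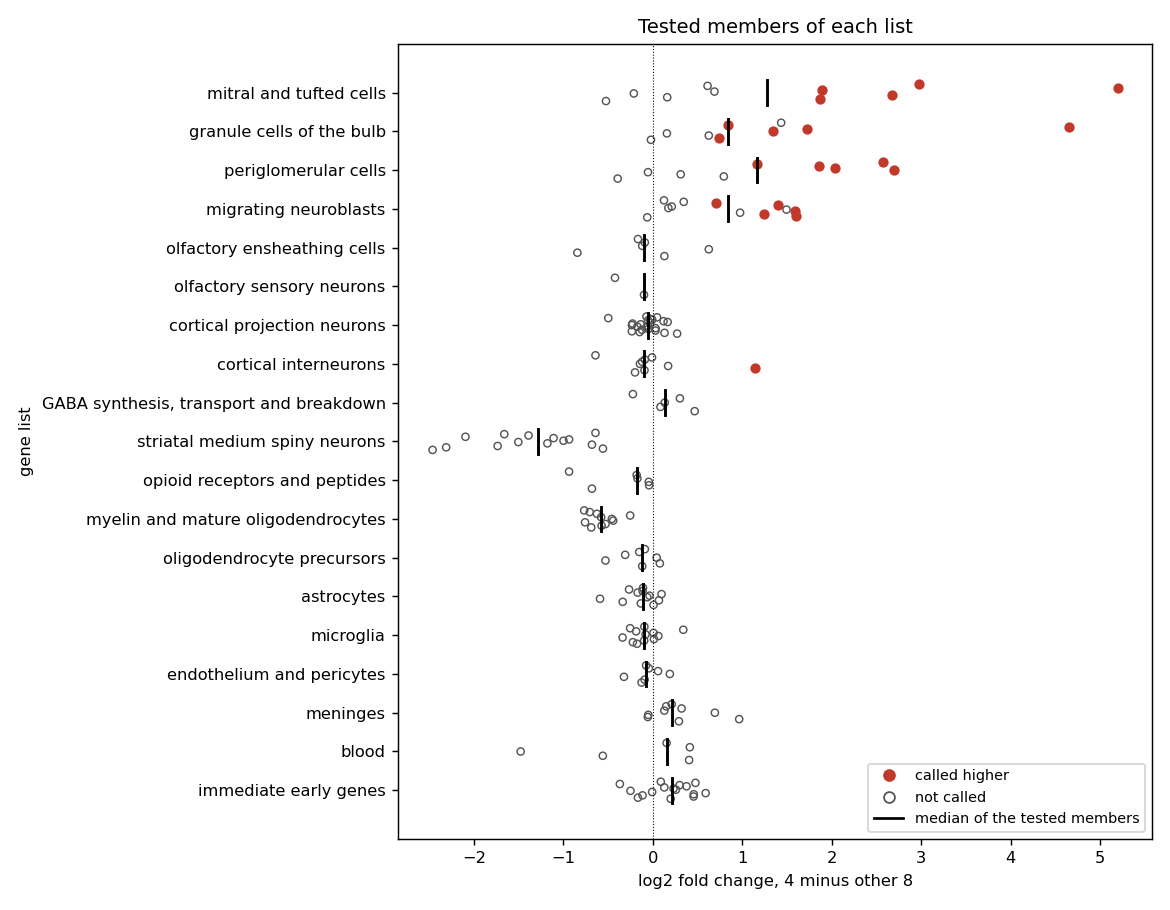
Log2 fold change of the 4 libraries over the other 8 for each tested member of 19 gene lists. Filled red points were called higher, open points were not called and black bars are medians. The 4 bulb neuron lists hold all the red points but Ndnf, and the striatal and myelin lists lie wholly below 0. S100a5, an olfactory sensory neuron gene with no read in the other 8, is not drawn, and the 2 tested choroid plexus genes and the Y-linked genes are left out.

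The 1 gene called lower was named after its values were seen, since it has no symbol. ENSRNOG00000062954, a protein-coding gene on chromosome 5, had no read in PNO 1, PNO 3, PNO 4, IUO 3 or control 1, and stood at 1.35 to 2.30 CPM in the other 7 libraries. Against a floor of 3 counts over the 4 libraries it was at least 114-fold lower there. It was not called by edgeR without PNO 3, without PNO 4, without IUO 3, with exposure group as a term or with the 4 striatal-marked libraries left out, where its adjusted p was 0.0521 to 0.126.

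Whether the difference had the same size in both exposures was tested with an interaction term, PNO 1, PNO 3 and PNO 4 over PNO 2 against IUO 3 over the other IUO libraries. None of the 79 genes was called for it by edgeR. Over all genes 1 was called, ENSRNOG00000064825, which had no read in IUO 3 and was at 15.7 to 29.7 CPM in the 11 others, with an adjusted p of 0.0114 (edgeR), and 241 genes had an unadjusted p under 0.05. With 1 PNO library outside the 4 and 1 IUO library inside, this comparison has little precision. IUO 3 was also the only IUO library with a high level of Y-linked transcripts, which cannot be told apart from its marker level here.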

How the data were processed

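RNA from rat prefrontal cortex was sequenced, 1 library per animal, after poly(A) selection with a stranded kit, per the labels' protocols. Reads were processed with HISAT2 and StringTie, per the submitters' processing notes. The tool versions, genome build and annotation were not given in the sources used here, so gene positions carry no build. The deposited table holds whole-number counts and FPKM (fragment counts corrected for gene length and library size) for 22431 genes, per the file headers.

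Members and gene lists were chosen with earlier results of these data known. Genes whose FPKM averaged 0.5 or more were kept (14170, the 3 rule genes among them), counts were scaled with TMM factors and edgeR's quasi-likelihood test was fitted to all 12 libraries, 4 against 8, two-sided, with Benjamini-Hochberg adjustment and a threshold of 0.05. CPM are counts scaled to the library total, and log2 CPM used a prior count of 2. Of 233 entries in 22 lists, 13 were not matched in the table. Genes named were the 15 with the smallest p in each direction, up to 4 called members per list or the 2 with the highest CPM where none was called, and the GABA and opioid genes; other members of the lists are given as ranges, and genes named beyond these are marked or are list members described for their role. A few genes that this rule or the lists include are not reported here by name. Exact permutation tests over animals compared the marker mean between exposures. Same-numbered libraries correlated at 0.0153 to 0.411 in their deviations from the group means, over 0.1 in 4 of 12 pairs, so numbers were not taken to pair animals. Fits used edgeR 4.0.16, DESeq2 1.42.0 and limma 3.58.1 under R 4.3.3, and figures used matplotlib 3.10.9 under Python 3.11.15. Alternatives covered the normalization, tool, pseudocount, filter, exposure term, replicate block, a continuous marker term and leaving out libraries.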

Additional observations from a re-analysis of the deposited data

Results flagged for a closer look

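In groups of 4 to 10 libraries, 91 sets of values were checked for a library far from the rest by Dixon's ratio of gap to range, and 6 stood apart. Chance alone gives about 1 in 20. PNO 2, with a marker mean of 0.470, lay far below the other PNO libraries (2.51 to 2.84). That mean is the measure that chose the 4 libraries, and PNO 2 is the PNO library left outside them, so this flag restates the choice. Among the 4 libraries, IUO 3 stood apart for Dlx1, at 69.8 CPM against 51.8 to 54.4, and for Trh, at 24.5 CPM against 6.88 to 8.59. Among the other 8, IUO 2, the library with the lowest total count, stood apart for Calb2, at 10.035 CPM against 17.4 to 20.96, for Cpne4, at 23.5 CPM against 34.0 to 42.8, and for the mean log2 CPM of the periglomerular list, at 1.93 against 2.27 to 2.49. No cause was tested for any of these.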

How the results depend on the processing

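All 79 genes kept a positive fold change under every alternative that tested them (53 of them with a mean FPKM of at least 2, 79 otherwise), and 48 of them were called in every fit that left out 1 library. In all 79, each of the 4 libraries was above each of the other 8. Leaving out libraries or changing the scale could thus hardly turn the sign, and the kept sign says little of stability. The count called higher was 142 with DESeq2, 50 with a mean FPKM of at least 2, 35 with exposure group as a term, 23 without the 4 controls and with that term, and 124 with the striatal marker mean as a term, an alternative added after seeing the data. Leaving out 1 library at a time gave 52 to 89 genes. The count called lower was 28 with DESeq2, 2 without a filter, 0 with a mean FPKM of at least 2, 7 with the exposure term, 2 with the continuous marker term, 2 without controls, 2 without the 4 striatal-marked libraries, 5 with the striatal term, and 0 to 4 leaving out 1 library. The limma fits called 91, 91 and 95 genes higher with pseudocounts of 0.5, 0.1 and 1. Of the counts for the 4 bulb neuron lists, 94 were within 1.5 times the 5 called and 6 were lower: granule 2 and neuroblast 3 with the exposure term, granule 1, neuroblast 2 and mitral and tufted 3 without controls, and periglomerular 3 with a mean FPKM of at least 2. With a replicate block, 55 genes were called higher, 48 of them among the 79, and 1 lower, Agt, in place of ENSRNOG00000062954; 8 of 12 libraries correlated best with a library of their own number, which is a hint from the data and not the design. The marker mean's exact permutation p with the replicate block was 0.125 for PNO against control, 0.625 for IUO against control and 0.375 for PNO against IUO. The smallest p that 4 pairs allow is 0.125, so the block could not pass the threshold. No difference in marker mean passed it after adjustment under the other alternatives, where a single pair of groups could not do so either, and this says nothing of stability. Beyond fewer genes tested or fewer libraries, the cause of these shifts was not tested. Depth limits genes under about 1 CPM, such as Mcub and Ms4a15 in the other 8 libraries.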

Other observations

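Pearson's r of log2 CPM over genes was 0.975 to 0.983 among the 4 (median 0.980), 0.947 to 0.983 among the other 8 (median 0.974) and 0.959 to 0.981 between the sets (median 0.974). These are correlations across genes, which are not independent replicates. Both sets held libraries with and without Y-linked transcripts. Within the IUO group only IUO 3 had them at a high level. Its summed CPM of the Y-linked list was 79.4, against 0.949, 1.26 and 1.82 in IUO 1, IUO 2 and IUO 4. Marker level and Y-linked level therefore cannot be told apart within that group. Eif2s3y, a Y-linked translation factor gene, was at 47.7 CPM in PNO 3 and 54.2 CPM in IUO 3 and at 1.24 and 0.441 CPM in PNO 1 and PNO 4, and its range in the other 8 was 0.525 to 61.6 CPM.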
